A study of Mus musculus with 6 samples.

Results

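The 32 genes described here carry glucose and lactate across the cell membrane, break glucose down to pyruvate and lactate, and pass pyruvate into the mitochondrion. They were taken by symbol from the deposited gene expression table, in which all 32 were found among 18280 genes, and all 32 had enough reads to be among the 14124 genes tested. Whole ovaries came from mice carrying a Dennd1a transgene (TG, genotype Dennd1aTG) and from wild-type mice (WT), 3 per genotype. The hormone PMSG (pregnant mare serum gonadotropin), which acts like FSH and drives follicles to grow, was given to all 6 mice 44 h before collection. The labels do not describe the promoter of the transgene, the number of transgenic lines, the strain or the age. Dennd1a encodes a protein that activates Rab35, a GTPase of endosomal traffic, and the study concerned a loss of FSH sensitivity in granulosa cells of these mice.

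Glycolysis turns glucose into pyruvate in the cytosol. Hexokinases trap glucose as its phosphate, phosphofructokinases commit it to breakdown, and pyruvate kinase makes pyruvate, which lactate dehydrogenase interconverts with lactate. Alternatively the mitochondrial pyruvate carrier takes pyruvate across the inner membrane to the pyruvate dehydrogenase (PDH) complex, which PDH kinases switch off. In the ovary this pathway links cell types: the mouse oocyte uses glucose poorly and relies on pyruvate that the surrounding cumulus granulosa cells make and hand over, and gonadotropins stimulate glucose use in granulosa cells.

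The libraries carried their labels, with Dennd1a at 570.2, 582 and 588 CPM in TG replicates 1 to 3 and at 44.6, 39.5 and 49.3 CPM in WT replicates 1 to 3. CPM scales counts to the library's effective size. Library totals lay between 17075484 and 18516171 estimated counts. Markers of granulosa, theca and oocyte were present in every library. Tissue markers were uneven in some libraries: a list of 7 adipocyte markers summed to 189 CPM in TG replicate 2, relative to library totals. It summed to between 15.4 and 36.8 in the other libraries. A list of 5 oviduct markers summed to 42.0 in WT replicate 3 and to 6.64 or less elsewhere. Ovgp1 alone measured 40.9 CPM in WT replicate 3 and was the 1 oviduct marker with enough reads to be tested. Erythrocyte markers summed to between 192 and 218 CPM in TG and between 118 and 135 CPM in WT libraries. The sums of 8 macrophage and leukocyte markers were 209 to 229.7 CPM in TG and 250.4 to 414 CPM in WT libraries. Of all tested genes 149 (1.05%) passed an adjusted p of 0.05 in edgeR, of which 144 (1.02%) were lower in TG, with 11 of 11 tested interferon-response genes among them, and 5 (0.0354%) were higher.

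Glycolytic and pyruvate genes had close levels in TG and WT ovaries, and edgeR called 0 of the 32, against 1.05% of all tested genes (0.0354% higher and 1.02% lower in TG). DESeq2, limma-voom and limma-trend on FPKM also called 0. At an unadjusted p under 0.05 edgeR had 1 member, Pdk4, which is 1 of 32, beside 4.08% of all tested genes. The lowest adjusted p of the 32 was 0.9997 in edgeR. Log2 fold changes of TG over WT lay between -0.35 for Aldoc and 0.36 for Pdk4, with a median of 0.03 beside 0.00 over all tested genes, and 19 of 32 were above 0. Their median size was 0.05 without regard to sign, beside 0.08 over all tested genes and 0.06 over those with a mean of at least 20 CPM. For 27 of the 32 the whole 95% interval lay between -0.5 and 0.5 (84.4%), which was so for 68.7% of all tested genes and for 92.2% of those with a mean of at least 20 CPM. Slc2a3, Aldoc, Eno2, Mpc2 and Pdk4 had wider intervals, and over the 32 genes the intervals reached from -0.93 to 0.72. In whole ovaries a change in the number of cells of a type and a change in RNA per cell cannot be told apart.

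**Figure D1:**
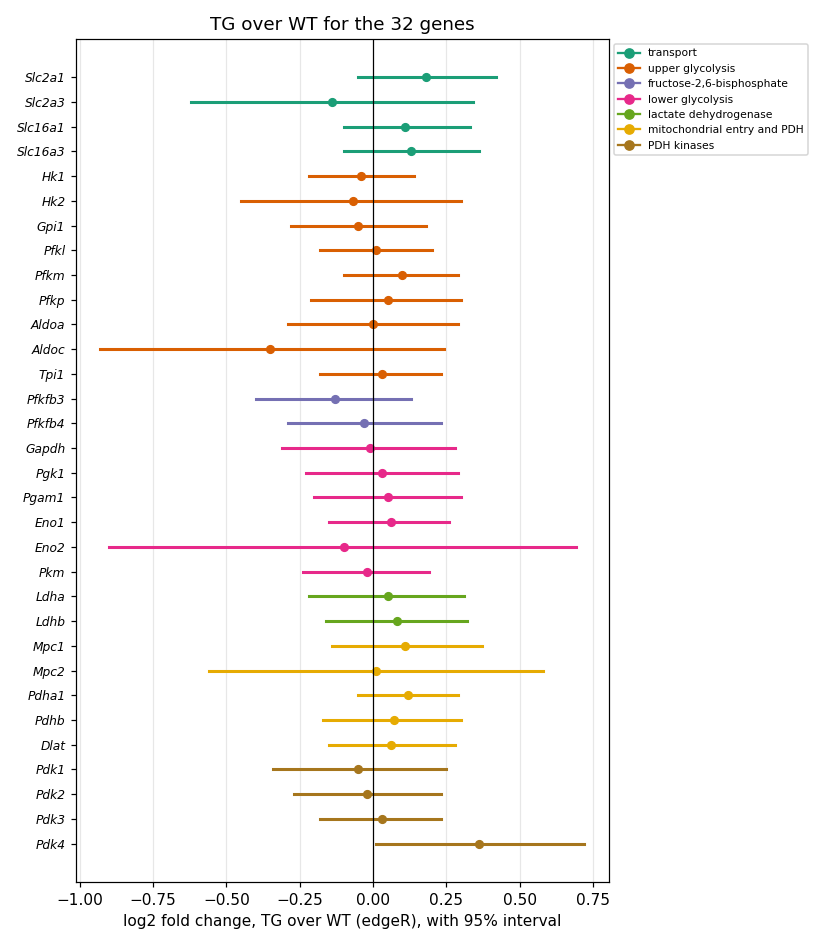
Log2 fold change of TG over WT (x axis) for each of the 32 genes (y axis, coloured by role), with dots for the edgeR estimate and bars for its 95% interval (n = 3 animals per genotype). The interval of Pdk4 alone leaves out 0, running from 0.01 to 0.72, and its adjusted p is 0.9997.

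Promoter sequences are shown for 4 members described below. Gapdh and Ldha were both highest in replicate 2 among TG libraries and lowest in replicate 1 among WT libraries, as were 12 of the 32 members in all. Ldhb is the partner subunit of Ldha, and Pdk4 had the largest estimate. A link between the promoter letters and the values of the libraries was not tested. The 250 bases before the transcription start are from RefSeq (GRCm38.p6), in the first window listed for each gene, 5′ to 3′ on the gene's strand. Capitals mark ACGTG or GCGTG, the cores that hypoxia-inducible factors bind, on either strand. The positions are chr6:125165774-125166023, minus strand, for Gapdh, chr7:46845554-46845803, plus strand, for Ldha, chr6:142507958-142508207, minus strand, for Ldhb and chr6:5496279-5496528, minus strand, for Pdk4.
Gapdh: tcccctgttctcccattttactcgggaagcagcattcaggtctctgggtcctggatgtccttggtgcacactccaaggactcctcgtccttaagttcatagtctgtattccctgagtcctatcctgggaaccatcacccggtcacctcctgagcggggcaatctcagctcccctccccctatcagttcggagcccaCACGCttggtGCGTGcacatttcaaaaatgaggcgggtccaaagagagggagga
Ldha: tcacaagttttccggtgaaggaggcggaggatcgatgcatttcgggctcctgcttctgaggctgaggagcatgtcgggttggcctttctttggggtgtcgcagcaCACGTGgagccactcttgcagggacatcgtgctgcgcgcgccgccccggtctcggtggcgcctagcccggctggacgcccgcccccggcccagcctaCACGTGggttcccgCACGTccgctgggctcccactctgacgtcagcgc
Ldhb: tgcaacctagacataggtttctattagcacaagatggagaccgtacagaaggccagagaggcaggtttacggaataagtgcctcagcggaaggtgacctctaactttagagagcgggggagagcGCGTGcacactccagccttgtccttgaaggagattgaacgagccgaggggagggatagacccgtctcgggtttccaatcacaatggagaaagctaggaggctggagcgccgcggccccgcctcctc
Pdk4: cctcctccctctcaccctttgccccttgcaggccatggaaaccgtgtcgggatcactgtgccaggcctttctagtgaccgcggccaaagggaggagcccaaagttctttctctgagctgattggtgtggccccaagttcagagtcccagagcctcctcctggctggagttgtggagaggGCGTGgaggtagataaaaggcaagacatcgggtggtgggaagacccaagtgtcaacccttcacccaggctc

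Ldha had 5 matches to ACGTG and 0 to GCGTG in this window, counted on both strands, and 2 of its stretches read CACGTG, an E-box that holds ACGTG on each strand and so counts as a pair of matches. Gapdh had 2 matches, both GCGTG, and Ldhb and Pdk4 had 1 GCGTG each. RefSeq windows were found for 31 members, all but Slc2a3. In the first listed window, 24 of the 31 (77.4%) held either core, which is so for 55.0% of the 11183 tested genes with such a window. ACGTG alone was in 38.7% of the members' windows and in 21.2% of those of tested genes, and GCGTG was in 54.8% of the members' windows and in 44.0% of those of tested genes. The E-box CACGTG was in 12.9% of the members' windows and 8.23% of those of tested genes. The GC box GGGCGG, searched on both strands, was in 61.3% of the members' windows and 57.8% of those of tested genes. These shares describe letters in a window, with no test.

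Glucose enters cells through carriers of the Slc2a family. Slc2a1 (Entrez gene 20525, chr4:119108745-119137330 in GRCm38.p6) encodes GLUT1. It measured 46.7, 41.1 and 45.2 CPM in TG replicates 1 to 3, against 40.7, 34.2 and 42.1 CPM in WT replicates 1 to 3. The groups overlapped by a single pair of libraries, since TG replicate 2 lay below WT replicate 3. In edgeR TG stood 0.18 above WT on the log2 scale (SE 0.10, 95% interval -0.05 to 0.42, adjusted p = 0.9997). Slc2a3, the high-affinity carrier GLUT3, was scarce, with 4.38, 4.88 and 6.07 CPM in TG and 5.50, 4.54 and 6.87 CPM in WT, and its log2 estimate was -0.14 (95% interval -0.62 to 0.34). By FPKM, which is per length of transcript and so allows genes to be compared, Slc2a1 made up 93.2 ± 1.18% of the pair in TG and 91.8 ± 0.924% in WT (SD, n = 3 each).

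Lactate and pyruvate leave and enter cells through monocarboxylate carriers. Slc16a1, which encodes MCT1, measured 100.3, 96.1 and 86.1 CPM in TG and 88.3, 94.0 and 79.1 CPM in WT. Slc16a3, the low-affinity lactate exporter MCT4, measured 35.8, 35.1 and 31.8 CPM in TG and 27.8, 32.4 and 33.8 CPM in WT. Both pairs of groups overlapped, with log2 fold changes of 0.11 (95% interval -0.10 to 0.33) and 0.13 (95% interval -0.10 to 0.36). Of the FPKM of both carriers Slc16a1 held 59.0 ± 0.266% in TG and 59.2 ± 3.59% in WT (SD, n = 3 each).

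Hexokinase genes differed in how steady they were. Hk1, the widely expressed form, measured 101, 92.4 and 95.1 CPM in TG and 92.9, 99.8 and 104 CPM in WT, a spread of 0.07 (log2 SD within genotype). Hk2, the inducible form, measured 36.3, 53.9 and 33.1 CPM in TG and 41.7, 41.2 and 47.0 CPM in WT, with a spread of 0.27. The highest and the lowest Hk2 value of all libraries were both in TG, in replicates 2 and 3. Their log2 fold changes were -0.04 (95% interval -0.22 to 0.14) and -0.07 (95% interval -0.45 to 0.30). Hk1 held 76.6 ± 5.38% of the FPKM of the pair in TG and 75.9 ± 1.09% in WT.

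Phosphofructokinase was spread almost evenly over its 3 genes. FPKM averaged 27.4 ± 1.66 in TG and 27.1 ± 2.13 in WT for Pfkl, the liver type. Pfkm, the muscle type, averaged 24.4 ± 2.05 in TG and 22.6 ± 0.664 in WT (SD, n = 3 each), and Pfkp, the platelet type, 21.4 in TG (19.4 to 24.6) and 20.8 in WT (19.0 to 23.0). In the order Pfkl, Pfkm, Pfkp each gene overlapped its neighbour in the ranges of the 6 libraries. Pfkp made up 26.4%, 34.0% and 27.4% of the family FPKM in TG replicates 1 to 3, against 30.4%, 31.3% and 26.9% in WT replicates 1 to 3. The log2 fold changes of the 3 genes were 0.01, 0.10 and 0.05, with 95% intervals between -0.21 and 0.30. Counts of Pfkp were not whole numbers in 5 libraries, a sign that reads matching more than 1 gene were shared out, so its level is less certain than those of Pfkl and Pfkm.

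Fructose-2,6-bisphosphate, the activator of phosphofructokinase, is made and broken by enzymes of the Pfkfb family. The members include Pfkfb3, whose enzyme mostly makes it, and Pfkfb4. Pfkfb2, which is not a member, averaged 26.9 CPM in TG and 24.3 CPM in WT, and Pfkfb1 2.28 and 2.37 CPM. Pfkfb3 measured 49.3, 66.0 and 53.4 CPM in TG and 59.2, 67.4 and 58.6 CPM in WT. TG replicate 2 was the only TG library above the lowest WT library. The log2 estimate for Pfkfb3 was -0.13 (SE 0.12, 95% interval -0.40 to 0.13). Pfkfb4 measured 21.3, 23.8 and 25.9 CPM in TG and 22.1, 26.4 and 23.8 CPM in WT, and edgeR put the log2 difference at -0.03 (95% interval -0.29 to 0.23). Of the FPKM of Pfkfb3 and Pfkfb4 alone, Pfkfb3 held 64.1 ± 3.40% in TG and 65.8 ± 1.13% in WT.

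Aldolase and enolase each came from 1 dominant gene. Aldoa had 793, 972 and 889.7 FPKM in TG and 739, 935 and 973 FPKM in WT, and a log2 fold change of -0.00 (95% interval -0.29 to 0.29). Aldoc made up at most 0.741% of aldolase FPKM in TG and at most 1.22% in WT. It measured 13.2, 16.8 and 16.6 CPM in TG and 13.5, 29.3 and 16.4 CPM in WT, so its log2 fold change of -0.35 (SE 0.26, 95% interval -0.93 to 0.24) rested on WT replicate 2. Without WT replicate 2 it was 0.06, and without WT replicate 1, the lowest WT library, -0.56. Eno1, the widely expressed enolase, averaged 418 ± 23.9 FPKM in TG and 400.0 ± 29.9 FPKM in WT, whereas the neuronal form Eno2 had 0.560, 0.780 and 0.650 FPKM in TG and 0.660, 0.370 and 1 FPKM in WT. Eno2 lay between 0.985 and 2.53 CPM over the 6 libraries, and its 95% interval of -0.90 to 0.69 was the widest of the 32.

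The remaining enzymes of the pathway were abundant. Gapdh, which makes the high-energy phosphate that Pgk1 uses to form ATP, had 2184, 2782 and 2351 FPKM in TG and 2085, 2576 and 2666 FPKM in WT, and ranked between 8 and 14 among all genes of a library. Mean FPKM over the 6 libraries was 884 for Aldoa, 449 for the pyruvate kinase gene Pkm, 430.1 for the mutase Pgam1, 409 for Eno1, 224 for the triose phosphate isomerase Tpi1, 199.9 for the isomerase Gpi1 and 150.1 for Pgk1. Among Pkm, Pgam1 and Eno1 the library ranges overlapped, and likewise between Tpi1 and Gpi1. Log2 fold changes of these 8 genes lay between -0.05 for Gpi1 and 0.06 for Eno1. The widest 95% interval among them was that of Gapdh, -0.31 to 0.28. Its counts were not whole in any library, so reads shared with similar sequences may enter its level. Together the 32 genes took 0.892%, 1.03% and 0.932% of all counts in TG replicates 1 to 3 and 0.839%, 0.988% and 0.994% in WT replicates 1 to 3.

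**Figure D2:**
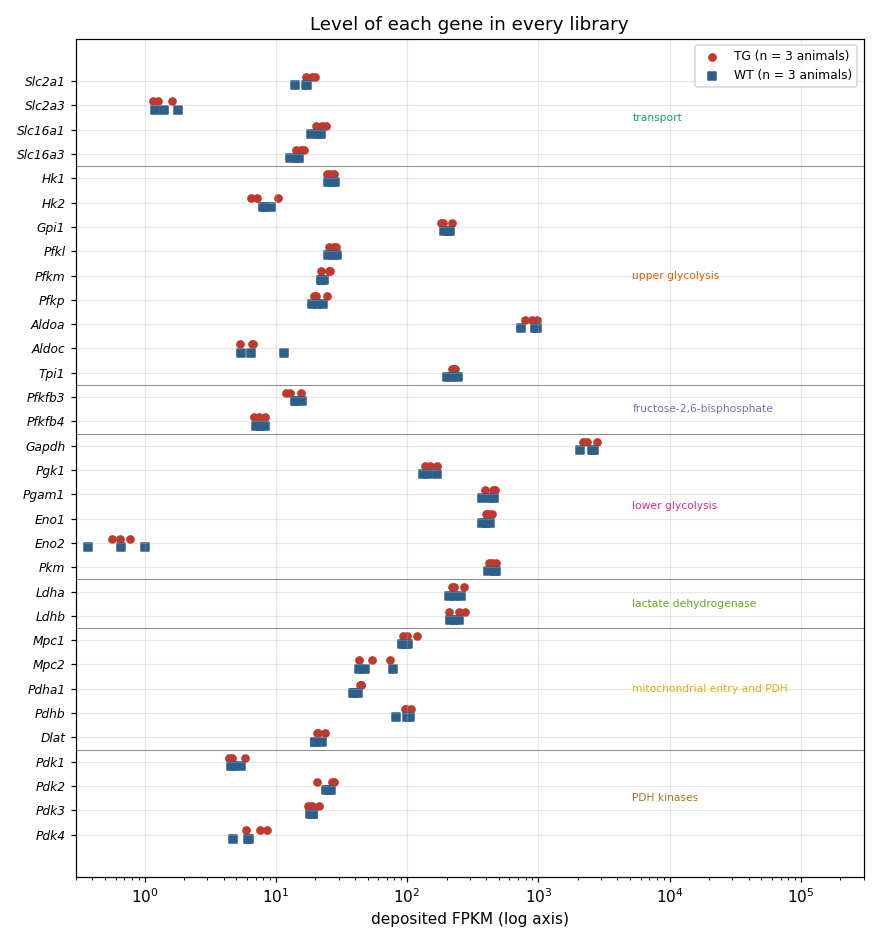
Deposited FPKM (x axis, log scale) of the 32 genes (y axis, grouped by role) in each of the 3 TG libraries (circles) and 3 WT libraries (squares). Levels run between 0.370 FPKM in the lowest library for Eno2 and 2782 FPKM in the highest for Gapdh, and TG and WT points of a gene lie close together.

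Lactate dehydrogenase is a tetramer of A and B subunits, and the levels of both genes overlapped. Ldha had 227, 271 and 218 FPKM in TG and 208, 227 and 256 FPKM in WT. Ldhb had 275, 209 and 247 FPKM in TG and 228, 212 and 249 FPKM in WT. The Ldha share of the pair was 45.2%, 56.4% and 46.9% in TG and 47.7%, 51.8% and 50.8% in WT. In TG replicate 2 Ldha was the highest and Ldhb the lowest of all 6 libraries. The log2 fold changes were 0.05 for Ldha (95% interval -0.22 to 0.31) and 0.08 for Ldhb (95% interval -0.16 to 0.32). Oocytes of the mouse are rich in Ldhb, and the 10 oocyte markers summed to 191, 169 and 194 CPM in TG replicates 1 to 3 and to 161, 126 and 246 CPM in WT replicates 1 to 3. Their part in the Ldhb level was not tested.

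Pyruvate enters the mitochondrion through a complex of MPC1 and MPC2. Mpc1 measured 68.1, 90.6 and 74.2 CPM in TG and 66.8, 75.6 and 72.8 CPM in WT, and its log2 estimate was 0.11 (95% interval -0.14 to 0.37). Mpc2 measured 29.1, 51.1 and 36.9 CPM in TG and 29.3, 54.1 and 32.6 CPM in WT. Replicate 2 of both genotypes stood above the other libraries for Mpc2, and its spread within a genotype, 0.43 on the log2 scale, was the largest of the 32 genes. The log2 fold change of Mpc2 was 0.01, and its 95% interval of -0.56 to 0.58 was correspondingly wide. Mpc1 held 65.0 ± 3.20% of the FPKM of the pair in TG and 63.7 ± 6.40% in WT.

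The PDH complex joins pyruvate to the citric acid cycle. Pdha1 (Entrez gene 18597, chrX:160122219-160138430 in GRCm38.p6) encodes its E1 alpha subunit, the target of the PDH kinases. It measured 118, 120.0 and 116 CPM in TG and 106, 115 and 104 CPM in WT. Pdha1 was the 1 member of 32 whose genotypes did not overlap, beside 8.25% of all tested genes, 3.21% with TG higher. The edgeR estimate was 0.12 on the log2 scale (SE 0.08, 95% interval -0.05 to 0.29, adjusted p = 0.9997). An exact two-sided permutation test of the group means gave p = 0.1, the smallest value that 3 animals against 3 allow. Groups of this size without overlap always give this value, so it adds nothing to the lack of overlap. Counts of Pdha1 were not whole in any library. Pdhb, the E1 beta subunit, averaged 132 ± 8.86 CPM in TG ovaries and 126 ± 15.5 CPM in WT, and Dlat, the E2 acetyltransferase, 84.0 ± 7.99 CPM in TG ovaries and 80.6 ± 5.83 CPM in WT (SD, n = 3 each). Their log2 fold changes were 0.07 and 0.06. All 5 genes of pyruvate entry and PDH had estimates above 0, between 0.01 and 0.12, and 0 of them passed.

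PDH kinases phosphorylate E1 alpha and shut the complex, which spares pyruvate. Pdk4 (Entrez gene 27273, chr6:5483351-5496278 in GRCm38.p6) is the kinase gene that fasting and fatty acids induce. It measured 24.5, 19.7 and 28.2 CPM in TG and 20.5, 15.6 and 20.3 CPM in WT. TG replicate 2 lay below WT replicates 1 and 3, so the groups overlapped. TG ovaries averaged 24.2 ± 4.28 CPM and WT ovaries 18.8 ± 2.74 CPM (SD, n = 3 each). On the log2 scale TG exceeded WT by 0.36 (SE 0.16, 95% interval 0.01 to 0.72). Its p was 0.0474 before and 0.9997 after adjustment in edgeR, and 0.3 in an exact two-sided permutation test. Without TG replicate 2, the library with the highest adipocyte markers, the log2 fold change of Pdk4 was 0.49 and its adjusted p 0.4672 in edgeR, whereas it was 0.23 without TG replicate 3 and 0.24 without WT replicate 2. Over 17 alternatives its estimate stayed between 0.23 and 0.55, and the lowest adjusted p was 0.3306, with the replicate number as a block.

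The other PDH kinase genes had estimates closer to 0. Pdk2 measured 56.8, 43.5 and 55.8 CPM in TG and 52.7, 50.8 and 55.0 CPM in WT, and its log2 fold change was -0.02 (95% interval -0.27 to 0.23). Pdk3 measured 38.4, 32.5 and 34.4 CPM in TG and 34.8, 33.7 and 35.1 CPM in WT, and Pdk1, a target of hypoxia-inducible factors, measured 25.4, 21.6 and 19.4 CPM in TG and 22.6, 25.3 and 20.7 CPM in WT. Their log2 fold changes were 0.03 and -0.05. By FPKM the order was Pdk2, Pdk3, Pdk4 and Pdk1, and the library ranges overlapped between Pdk2 and Pdk3 and between Pdk4 and Pdk1. Pdk4 made up 12.2%, 12.2% and 14.7% of kinase FPKM in TG and 11.3%, 9.01% and 11.0% in WT, without overlap. The Pdk2 share averaged 44.0 ± 1.72% in TG and 46.0 ± 0.578% in WT. It did not overlap either, but narrowly: its highest TG and lowest WT values both round to 45.6%. No test was run on shares, and no background of shares over other genes was computed.

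**Figure D3:**
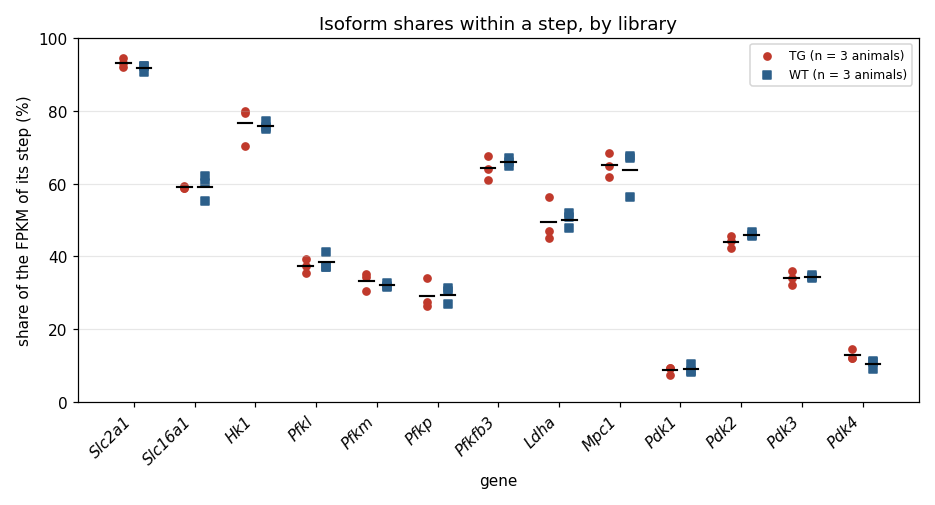
Share of a gene in the summed FPKM of the genes of its step (y axis, percent) for 13 genes (x axis), with circles for the 3 TG libraries, squares for the 3 WT libraries and a bar at each mean. By SD, TG points spread more than WT points for Slc2a1, Hk1, Pfkm, Pfkp, Pfkfb3, Ldha, Pdk2, Pdk3 and Pdk4. They spread less for Slc16a1, Pfkl, Mpc1 and Pdk1. Pdk4 shares are 12.2 to 14.7% in TG and 9.01 to 11.3% in WT.

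The spread between animals of 1 genotype (log2 SD) exceeded the size of the log2 fold change for 27 of the 32 genes, all but Slc2a1, Slc16a3, Pfkm, Pdha1 and Pdk4, and for 14 of the 15 enzymes of upper and lower glycolysis. This count was not made over all tested genes. There the median spread was 0.14 beside a median size of 0.08, against 0.15 and 0.05 for the 32 members. Among the 15 enzymes TG replicate 2 was the highest TG library for 12. This was so for 37.2% of all tested genes and for 44.6% of those with a mean of at least 100 CPM. WT replicate 1 was the lowest WT library for 11 of the 15, beside 29.3% of all tested genes. The median deviation of these 15 genes from their genotype mean, as log2(CPM + 1), was -0.13, 0.12 and -0.01 in TG replicates 1 to 3 and -0.12, 0.08 and 0.07 in WT replicates 1 to 3. Over all tested genes the same medians lay between -0.01 and 0.01. Gapdh is an example, at 2634, 3410.4 and 2874 CPM in TG and 2523, 3189 and 3286 CPM in WT. Hk1, Pfkl and Pfkm, together with Slc2a1, Ldhb, Pdk2, Pdk3 and Pdk4, did not share the peak in TG replicate 2 and were lowest there among the TG libraries. Without TG replicate 2 the number of members without overlap of the genotypes was 8 (25.0%), beside 17.6% of all tested genes. It was 3 (9.38%) without TG replicate 3 and likewise without WT replicate 2, and 2 without WT replicate 3, beside 15.3%, 17.5% and 19.3% of all tested genes. Without TG replicate 1 it was 1 (3.12%) and likewise without WT replicate 1, beside 15.4% and 18.3% of all tested genes.

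**Figure D4:**
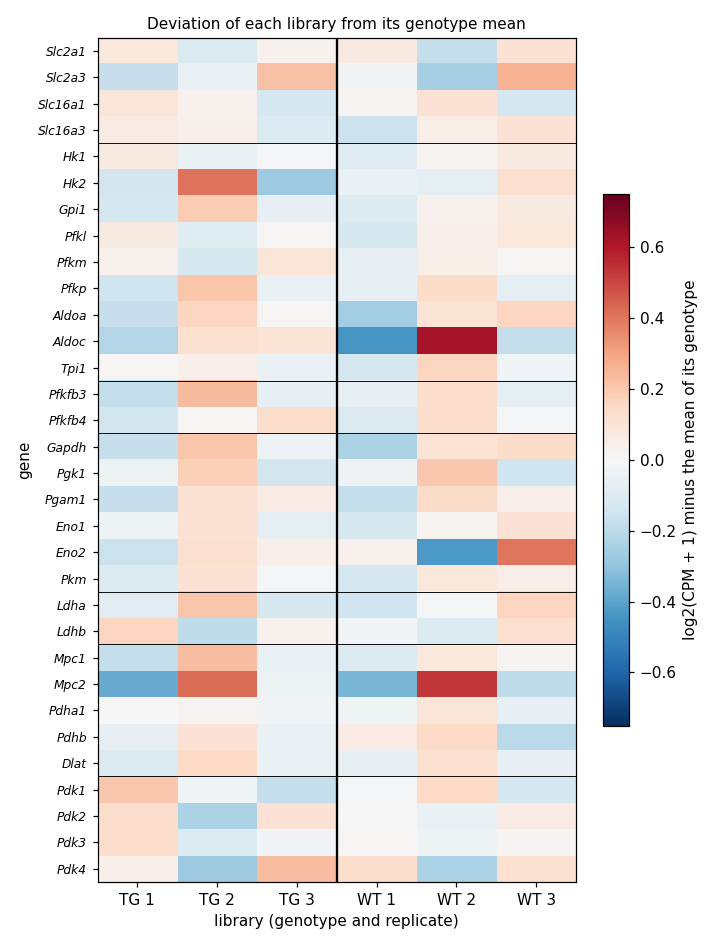
Deviation of each library (x axis) from the mean of its genotype for each of the 32 genes (y axis), as log2(CPM + 1), with red for higher and blue for lower than the genotype mean. TG replicate 2 is red for most enzymes of glycolysis while replicate 1 of both genotypes is blue, and Mpc2 stands out at 0.42 in TG replicate 2 and 0.53 in WT replicate 2.

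Neighbouring pathways were examined through 10 lists with 119 tested genes in all, of which 0 passed in edgeR, DESeq2, limma-voom or limma-trend, while edgeR gave 4 of them an unadjusted p under 0.05. The median log2 fold change of the 119 was 0.04. Other glycolytic isoforms had 0 of 9 called and a median of 0.03, with Tigar, a phosphatase that lowers fructose-2,6-bisphosphate, at 0.21 (SE 0.11) and the leukocyte hexokinase Hk3 at -0.53 (SE 0.32). Among other sugar and monocarboxylate carriers 0 of 12 passed, the median was 0.01, and the monocarboxylate carrier Slc16a7 had 0.36 (SE 0.19) and Bsg, the chaperone of these carriers, -0.06 (SE 0.09). Partners of PDH had 0 of 8 called and a median of -0.01, with the E3 subunit gene Dld at 0.10 (SE 0.11) and Lipt1, which attaches lipoic acid, at 0.13 (SE 0.14).

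In gluconeogenesis and the branches from pyruvate 0 of 10 passed. Pcx, the carboxylase that makes oxaloacetate from pyruvate, measured 117, 131 and 127 CPM in TG and 96.6, 105 and 120.0 CPM in WT. Only TG replicate 1 and WT replicate 3 were out of order, and edgeR gave a log2 fold change of 0.22 (SE 0.10) with p = 0.0469 before and 0.9997 after adjustment, from a model across all genes; an exact permutation test was not run. Slc37a4, a carrier of glucose 6-phosphate, had -0.17 (SE 0.14). Pentose phosphate genes had 0 of 8 called and a median of 0.06, with Pgls at -0.13 (SE 0.11) and Pgd at 0.08 (SE 0.08). For glycogen 0 of 12 passed and the median was 0.01, with the phosphorylase kinase subunit gene Phka2 at -0.14 (SE 0.12).

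Citric acid cycle genes had 0 of 16 called, with 13 estimates above 0, a median of 0.07 and a range of -0.04 to 0.12. Sdhb, a subunit of succinate dehydrogenase, and Cs, citrate synthase, had the smallest p, with 0.12 (SE 0.08) each. Genes of the shuttles that carry cytosolic NADH electrons into mitochondria had 0 of 9 called and a median of 0.09, with Mdh1 at 0.10 (SE 0.08) and Gpd1 at 0.65 (SE 0.59). Gpd1 measured 1.66, 7.35 and 1.46 CPM in TG and 2.21, 1.37 and 3.11 CPM in WT, and without TG replicate 2, the library with the highest adipocyte markers, its estimate was -0.51. Hypoxia-inducible factors and their targets had 0 of 21 called, 0 at an unadjusted p under 0.05 and a median of 0.03, with Egln2, a prolyl hydroxylase of the factors, at -0.17 (SE 0.09) and Ddit4 at 0.19 (SE 0.10).

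Fatty acid oxidation and targets of PPAR receptors, the receptors that also drive Pdk4, had 0 of 14 called and 2 at an unadjusted p under 0.05, with a median of 0.08. Angptl4, a secreted inhibitor of lipoprotein lipase, measured 137, 173 and 166 CPM in TG and 112, 109 and 149.9 CPM in WT, which edgeR put at 0.36 on the log2 scale (SE 0.14, adjusted p = 0.9258). Cd36, a fatty acid receptor, measured 48.1, 39.5 and 27.8 CPM in TG and 30.1, 27.9 and 26.2 CPM in WT, put at 0.46 by edgeR (SE 0.17, adjusted p = 0.9294). TG replicate 3 lay among the WT libraries for Cd36 while it was the highest library for Pdk4. Adipocytes express both Angptl4 and Cd36. Without TG replicate 2 their log2 fold changes were 0.30 and 0.44. The part of adipocyte RNA in them was not tested.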

How the data were processed

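Per the labels' protocols, total RNA of whole ovaries was sequenced on a BGISEQ-500 instrument. Tools named in the submitters' processing notes are RSEM 1.3.1, Bowtie2 and DESeq2 1.4.5, and the build is mm10; their roles are not stated. The authors deposited estimated counts per gene and library (not whole in 8.5% to 9.12% of values, as when reads are divided among similar genes) and a second set of values whose unit the headers do not name. It was identified as FPKM deposited by the authors: in 287 long genes with a single transcript, count divided by value and length gave 94.47% to 94.74% of the library totals. The authors' group means were not used. Strandedness and annotation are not given in the sources used here, so overlapping or antisense genes cannot be separated.

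Rounded counts went into edgeR 4.0.16 under R 4.3.3 (TMM factors 0.990 to 1.015, filterByExpr with a minimum count of 10 and total of 15, quasi-likelihood test, two-sided, Benjamini-Hochberg adjustment over 14124 genes, threshold 0.05, common biological coefficient of variation 12.5%), with genotype as the single factor. Standard errors were derived from log2 fold change and F, and 95% intervals use the t distribution. The 3 animals per genotype limit precision. Replicates differed by more than sampling noise (chi-square per degree of freedom 7.92 to 21.9). The fit was tested on simulated data. Alternatives were other scalings and filters, a replicate block, DESeq2 1.42.0, limma 3.58.1 (voom, and trend on log2(FPKM + 1) or log2(FPKM + 0.1) with at least 1 FPKM in 3 samples) and left-out libraries.

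All 32 members matched RefSeq (GRCm38.p6) by Entrez number. Values per library are given for isoform families and for the genes with the largest change or smallest p in each role, and up to 2 genes with the smallest p per pathway list. The members and lists were chosen with earlier results of these data known. The values of 1 gene of the glycogen list are not reported here.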

Additional observations from a re-analysis of the deposited data

How the results depend on the processing

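None of the 32 genes passed in the edgeR test as reported or under any of 17 alternatives, other tools included, and the lowest adjusted p was 0.3306, for Pdk4 with the replicate block. Genes called among all tested ranged between 119 and 204. Pdha1, Pdk4, Pfkfb3, Pfkm, Slc16a1, Slc16a3 and Slc2a1 kept the sign of their estimate under all 17, and the other 25 genes changed sign under at least 1. The median log2 fold change of the 32 lay between -0.04 and 0.06 with single libraries left out. With 3 animals per genotype, the intervals of Aldoc, Eno2, Mpc2, Slc2a3 and Pdk4 still hold log2 differences beyond 0.5. The low counts of Eno2 gave no value under the stricter count filter and on the FPKM scale. The number of genes without overlap was not recomputed for the other filters and tests.

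The labels do not say whether TG and WT libraries with the same replicate number were handled together. Deviations of such pairs correlated at 0.32, 0.12 and 0.09 across genes, and each library correlated best with its own number. The replicate block called 159 genes, against 149 without it, and 0 members. In edgeR the unadjusted p of Pdk4 was 0.00658 with the block and 0.0474 without it. The cause of these correlations was not tested.

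With single libraries left out, between 1 (3.12%) and 8 members (25.0%) had genotypes without overlap, beside 15.3% to 19.3% of all tested genes. Without both TG replicate 2 and WT replicate 3 there were 10 such members (31.2%), beside 34.4% of all tested genes. Leaving out both turned the sign of the log2 fold change, to 0.06 for Slc2a3, 0.02 for Hk1, -0.11 for Pfkp, -0.01 for Tpi1, -0.14 for Pgk1, 0.15 for Eno2, -0.00 for Mpc1, -0.34 for Mpc2, -0.09 for Pdhb, -0.05 for Dlat, 0.12 for Pdk2. Aldoa, at -0.00, was 0.01 with upper-quartile factors, without composition factors and in limma-trend with either pseudocount, and 0.00 with the replicate block and in limma-voom. With single libraries left out, the log2 fold change ran over 0 in 24 genes: -0.12 to 0.08 for Aldoa, -0.56 to 0.06 for Aldoc, -0.02 to 0.12 for Dlat, -0.01 to 0.11 for Eno1, -0.39 to 0.25 for Eno2, -0.13 to 0.07 for Gapdh, -0.15 to 0.01 for Gpi1, -0.32 to 0.06 for Hk2, -0.07 to 0.13 for Ldha, -0.00 to 0.17 for Ldhb, -0.01 to 0.20 for Mpc1, -0.23 to 0.34 for Mpc2, -0.03 to 0.14 for Pdhb, -0.16 to 0.04 for Pdk1, -0.09 to 0.09 for Pdk2, -0.04 to 0.08 for Pdk3, -0.10 to 0.04 for Pfkfb4, -0.05 to 0.05 for Pfkl, -0.07 to 0.12 for Pfkp, -0.04 to 0.13 for Pgam1, -0.06 to 0.14 for Pgk1, -0.09 to 0.03 for Pkm, -0.28 to 0.02 for Slc2a3, -0.04 to 0.11 for Tpi1. The cause was not tested.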
